A study of Homo sapiens with 9 samples.

Results

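The noncoding host genes of small nucleolar RNAs (snoRNAs) were taken as every GENCODE gene whose symbol is SNHG followed by a number, together with GAS5, ZFAS1, EPB41L4A-AS1 and DANCR. This choice by name gave 32 genes, and all 32 were among the 60609 gene identifiers of the count tables. Of these, 30 had enough counts to be tested, among 21682 genes tested in all. The cells were U2-OS, an established human osteosarcoma line, and RNA was sequenced after depletion of ribosomal RNA. One group of 3 libraries (replicates A, B and C) came from clone A1 and another 3 from clone A4, both made to overexpress NCBP2, the protein that holds the RNA cap within the nuclear cap-binding complex. The 3 vector libraries came from 3 clones made in the same way with an empty vector, with 1 library for each clone. Each NCBP2 group is therefore 1 clone, and the labels do not say whether its 3 libraries were separate cultures, so p-values measure the spread between libraries, which may in part be technical.

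A snoRNA host gene is transcribed and spliced like an mRNA, and its snoRNAs are trimmed out of the removed introns. Box C/D snoRNAs guide ribose methylation and box H/ACA snoRNAs guide pseudouridylation, mainly of ribosomal RNA. The spliced host RNA often has no long reading frame, is exported and engaged by ribosomes, and is in many cases removed by nonsense-mediated decay (NMD). Many hosts begin with a C followed by a run of pyrimidines, the terminal oligopyrimidine (TOP) motif that ties translation to growth signals. The cap-binding complex accompanies such RNAs from transcription to export.

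Sequence at the annotated start was read from RefSeq for GRCh38.p14, where 28 of the 32 members had an entry. The tract searched was a C followed by at least 4 further C or T letters on the strand of the gene, starting within 5 bases of the annotated start. It was found in 13 of the 28 members (46.4%) and in 21.1% of 35116 promoters of the same table. With starts allowed only within 2 bases, 9 members (32.1%) and 10.5% of all promoters held it, and within 10 bases 17 members (60.7%) and 33.5% of all promoters. The windows below hold 10 bases before the start and 20 from it on, 5′ to 3′, with the tract in capitals. ZFAS1, SNHG16, SNHG18, SNHG32, SNHG4 and DANCR are shown for their tracts. GAS5 and SNHG29 are shown because no tract was found within 5 bases of the start that RefSeq gives. The SNHG29 window opens with a C and a run of pyrimidines, 10 bases before the start, which only the 10-base search takes in. The GAS5 window lies wholly outside the GENCODE gene, which spans chr1:173858559-173868882.
ZFAS1, chr20:49278632-49278661, plus strand: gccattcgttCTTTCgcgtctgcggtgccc
SNHG16, chr17:76557754-76557783, plus strand: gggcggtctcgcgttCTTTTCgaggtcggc
SNHG18, chr5:9546190-9546219, plus strand: gccgcgccgcCTCCTCCTCCTCCTCCTCCC
SNHG32, chr6:31834906-31834935, plus strand: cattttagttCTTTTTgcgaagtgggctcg
SNHG4, chr5:139274091-139274120, plus strand: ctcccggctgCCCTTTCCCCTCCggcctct
DANCR, chr4:52712384-52712413, plus strand: tgcgcgccccgCCCTTgcccagagtcttcc
GAS5, chr1:173869026-173869055, minus strand: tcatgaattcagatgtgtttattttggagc
SNHG29, chr17:16438977-16439006, plus strand: ccttttgtgaggattgggatattccgactc
A match is a description of the letters, and start sites were not measured in these libraries.

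Total reads ranged from 80341579 to 111784333 per library, and counts on the strand of annotated genes from 29234022 to 50554080. NCBP2 itself, the check of the labels, measured 90.6 to 98.4 CPM (counts relative to the scaled library total) under the empty vector, 299 to 348 CPM in clone A1 and 456 to 1035 CPM in clone A4. Clone A1 replicate A stood apart, with a correlation of 0.899 to 0.928 with the other 8 libraries across genes. The osteoblast-lineage markers RUNX2 (182 to 294 CPM), COL1A1 and SPARC were high in all libraries, while SP7 and BGLAP had at most 1 count, IBSP had 0 counts and COL1A2 was at most 1.15 CPM. TERT, the telomerase gene that U2-OS cells keep silent, had 0 counts, and of the markers of other cell types CD3E and SOX10 also had 0. Low levels were counted for the epithelial marker EPCAM (2.42 to 5.58 CPM), the leukocyte marker PTPRC (0.400 to 2.01 CPM) and the neuronal marker RBFOX3 (0.669 to 13.6 CPM), and their part in the results was not tested.

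None of the 30 host genes tested passed an adjusted p of 0.05, neither between NCBP2 clones and vector clones nor between the clones. Together the 32 members held 0.149% to 0.178% of the gene counts of a library. With values given here and throughout in the order A, B, C of the replicates, the vector share was 0.178%, 0.178% and 0.161%. The clone A1 share was 0.162%, 0.162% and 0.163%, and the clone A4 share 0.149%, 0.157% and 0.165%. The vector libraries held the 2 highest shares, and the vector replicate C share lay inside the range of both clones together. Without SNHG14, which measured 471, 303 and 219 CPM in clone A1, the shares were 0.117%, 0.131% and 0.142% in that clone. They were then 0.114%, 0.132% and 0.139% in clone A4, and 0.150%, 0.159% and 0.133% under the vector, with vector replicate C inside the range of each clone.

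The level of the hosts spanned more than the differences between groups. Per kb of exon, averaged over all 9 libraries, SNHG16 was highest at 65.2 CPM per kb. SNHG3 followed at 34.2, GAS5 at 28.7, SNHG6 at 27.4 and SNHG1 at 22.4 CPM per kb. SNHG29 (14.8), DANCR (9.79), SNHG4 (8.09), SNHG8 (5.32) and SNHG26 (5.03 CPM per kb) completed the 10 highest. At the other end, SNHG27 and SNHG21 measured 0.186 and 0.178 CPM per kb. SNHG14, the long transcript of the Prader-Willi region, had a mean of 254 to 331 CPM per group but only 2.35 CPM per kb, because its annotated exons cover 123 kb. Lengths are the union of all exons in GENCODE 44, which includes retained introns, so levels per kb are low for genes with many isoforms.

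**Figure D1:**
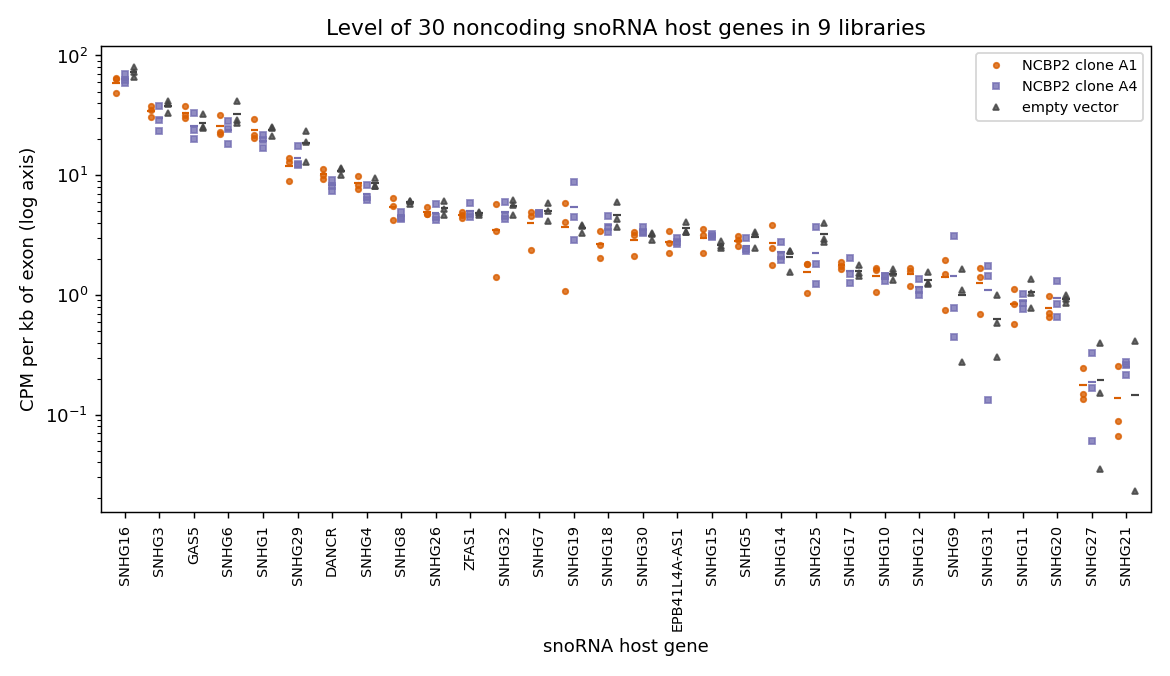
Level of each of the 30 tested host genes in CPM per kb of exon on a log axis, ordered by the mean over all libraries. Points are libraries (circles clone A1, squares clone A4, triangles empty vector) and short lines are group means. Vector replicate B has 0 counts for SNHG21 and no point there. SNHG16 is highest at a mean of 65.2 CPM per kb, and the groups lie close together for most genes.

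Of the members not tested, SNHG28 had 0 counts in all 9 libraries, and 90.8% of its exon sequence is shared with other genes on its strand, where such reads are not counted. SNHG22 measured at most 0.282 CPM, and 98.3% of its stranded reads were on the opposite strand, where MYO5B overlaps it. Reads that fit 2 genes on 1 strand are left out of the counts, and 27 of the 32 members share some exon sequence with another gene on their strand, mostly their own snoRNAs.

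In clone A1 against vector, 0 of the 30 hosts passed the threshold, by edgeR's quasi-likelihood test with Benjamini-Hochberg adjustment over all genes, and the smallest adjusted p was 0.510. The share of all genes tested that passed was 0.0646%. At an unadjusted p under 0.05, 2 hosts were lower (SNHG18 and SNHG29) and 0 higher, against 4.27% of all genes lower and 3.24% higher. The groups did not overlap for 3 hosts that were lower (SNHG18, SNHG25 and SNHG16) and for 0 that were higher, where 8.06% of all genes were lower and 6.18% higher without overlap. The median log2 fold change was -0.10 over the 30 hosts and -0.02 over all genes tested. DESeq2 gave 0 adjusted calls and 2 hosts at an unadjusted p under 0.05, both lower, against 5.21% of all genes lower.

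SNHG18, at chr5:9546170-9550725 on the plus strand and the host of the C/D snoRNA SNORD123, was the host with the smallest p in clone A1. Its vector libraries measured 9.10, 12.5 and 7.78 CPM, those of clone A1 4.26, 5.51 and 7.15 CPM, and those of clone A4 9.55, 7.69 and 6.99 CPM. Every clone A1 library lay under every vector library, while clone A4 overlapped both. The log2 fold change in clone A1 against vector was -0.79 (SE 0.295, 95% interval -1.43 to -0.15), with an adjusted edgeR p of 0.510. In clone A4 against vector it was -0.28, with an interval from -0.91 to 0.36. Without clone A1 replicate A, the lowest library, the clone A1 value was -0.62. The mean of both clones against vector was -0.54, and -0.32 without vector replicate B.

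SNHG29, at chr17:16438767-16480249 on the plus strand, holds SNORD49A, SNORD49B and SNORD65. The vector libraries stood at 169, 209 and 116 CPM, clone A1 at 80.4, 125 and 116 CPM, and clone A4 at 111, 108 and 157 CPM. Vector replicate C lay inside the clone A1 range, so those groups overlapped, with vector replicate B the highest of all. The log2 fold change in clone A1 was -0.62 (SE 0.245, adjusted edgeR p 0.570), and the mean of both clones against vector gave -0.51 (95% interval -0.96 to -0.05, adjusted edgeR p 0.684). Leaving out vector replicate B gave -0.30 for that mean, and leaving out clone A1 replicate A gave -0.44 for clone A1.

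SNHG16, the most abundant host per kb, stood at 418, 462 and 384 CPM under the vector, at 279, 367 and 374 CPM in clone A1, and at 339, 407 and 363 CPM in clone A4. It holds the SNORD1 group of snoRNAs. All 3 clone A1 libraries lay under the vector range, and clone A4 replicate B lay inside it. The log2 fold change was -0.31 in clone A1 (95% interval -0.66 to 0.04) and -0.19 in clone A4 (-0.54 to 0.16). SNHG25, named here after its values were seen, separated in clone A1 at 0.352 to 0.618 CPM against 0.937 to 1.36 CPM under the vector, and its interval of -2.40 to 0.29 on the log2 scale was among the widest.

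In clone A4 against vector, 0 of the 30 hosts passed the threshold by edgeR, with a smallest adjusted p of 0.753, and 0.115% of all genes passed. At an unadjusted p under 0.05, 1 host was lower (DANCR) and 0 higher, against 2.75% of all genes lower and 2.5% higher. The groups did not overlap for 3 hosts that were lower (DANCR, SNHG8 and EPB41L4A-AS1) and for 2 that were higher (SNHG15 and SNHG30), where 5.86% of all genes were lower and 6.2% higher without overlap. The median log2 fold change was -0.15 over the hosts and 0.03 over all genes tested. DESeq2 gave 0 adjusted calls and 1 host at an unadjusted p under 0.05, which was lower, against 3.15% of all genes lower. Both clones were compared with the same 3 vector libraries, so the clones' differences from vector are not independent of each other.

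DANCR, at chr4:52712325-52723623 on the plus strand, was first described as an RNA that holds progenitor cells undifferentiated, and it hosts SNORA26. Its vector libraries measured 117, 115 and 103 CPM, those of clone A1 94.6, 102 and 114 CPM, and those of clone A4 74.8, 93.2 and 83.2 CPM. The clone A4 libraries lay under all 6 others, and clone A1 overlapped the vector range. The log2 fold change in clone A4 against vector was -0.41 (SE 0.158, 95% interval -0.76 to -0.07, adjusted edgeR p 0.753). Against clone A1 it was -0.31, with an adjusted edgeR p of 0.779.

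SNHG8, the host of SNORA24, stood at 38.0, 40.5 and 40.5 CPM under the vector and at 28.7, 32.4 and 29.1 CPM in clone A4, with a log2 fold change of -0.40 (95% interval -0.82 to 0.02). Its clone A1 libraries spread from 27.7 to 43.0 CPM, across both groups. EPB41L4A-AS1, antisense to EPB41L4A and the host of SNORA13, stood at 17.5, 14.5 and 14.5 CPM under the vector, at 9.71, 11.6 and 14.6 CPM in clone A1, and at 11.5, 11.8 and 12.9 CPM in clone A4. Its log2 fold change was -0.37 in clone A1 and -0.37 in clone A4, with an interval of -0.79 to 0.05 for the mean of both. Of its stranded reads, 35.1% were on the opposite strand, where EPB41L4A covers 51.2% of its exon sequence, and its values rest on the strand of the library.

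The hosts that were higher in clone A4 without overlap were SNHG15, at 12.002 to 12.8 CPM against 9.79 to 11.2 CPM under the vector, and SNHG30, at 5.35 to 6.05 CPM against 4.64 to 5.29 CPM. Their log2 fold changes were 0.25 (95% interval -0.26 to 0.76) and 0.15 (-0.47 to 0.76). Both were named after their values were seen. SNHG6, the host of SNORD87, stood at 105, 69.4 and 73.5 CPM under the vector, at 81.2, 55.6 and 58.0 CPM in clone A1, and at 62.0, 72.3 and 46.2 CPM in clone A4. Its groups overlapped, and its log2 fold changes were -0.46 in clone A4 (95% interval -0.96 to 0.05) and -0.35 in clone A1. The clone A4 value was -0.26 without vector replicate A, the highest of the 9.

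**Figure D2:**
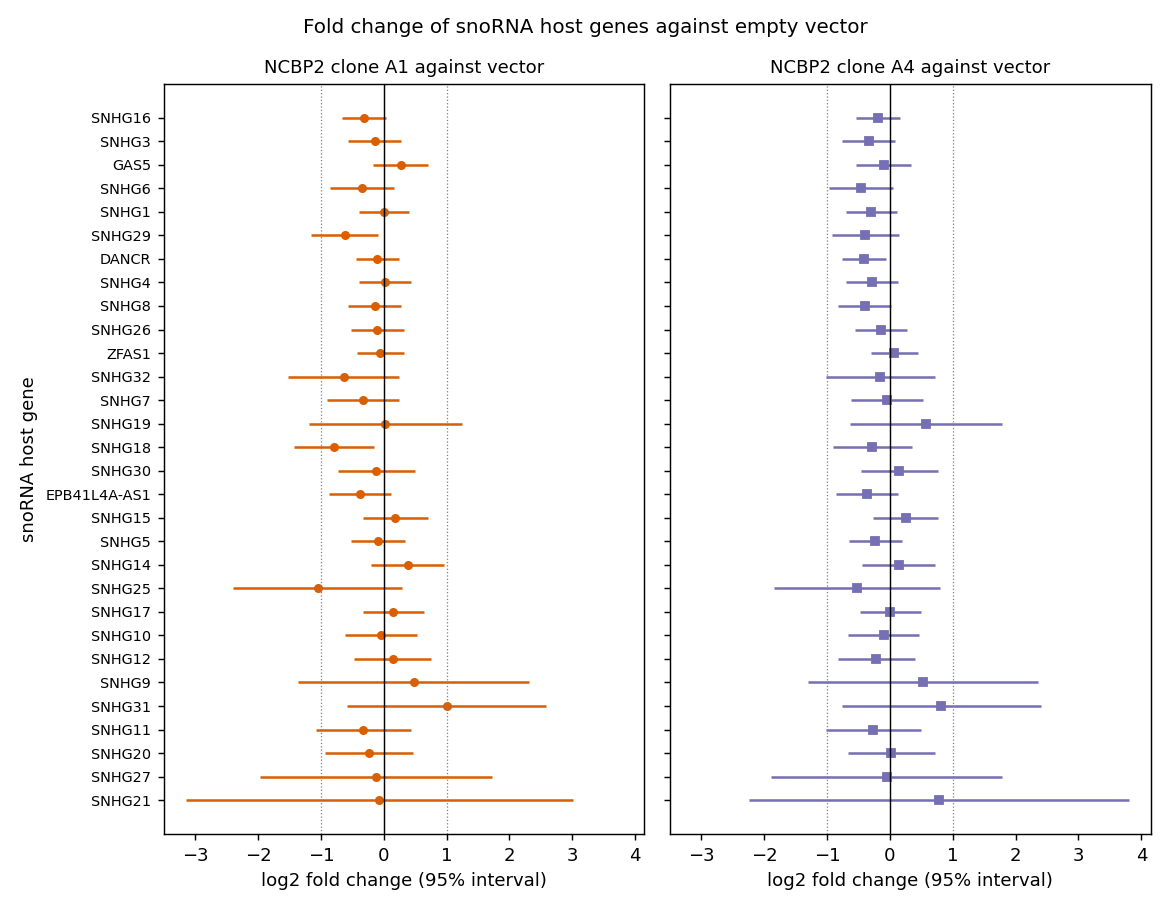
Log2 fold change against empty vector (points) with its 95% interval from edgeR (lines) for the 30 tested hosts, in clone A1 (left, circles) and clone A4 (right, squares), in order of level per kb. Dotted lines mark a 2-fold difference in either direction. The interval leaves out 0 for SNHG18 and SNHG29 in clone A1 and for DANCR in clone A4, and none of these passed after adjustment.

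GAS5, an RNA that builds up when growth or translation stops and that can bind the glucocorticoid receptor, stood at 159, 125 and 123 CPM under the vector, at 187, 147 and 156 CPM in clone A1, and at 99.6, 162 and 118 CPM in clone A4. The groups overlapped in every comparison. The log2 fold change was 0.27 in clone A1 and -0.10 in clone A4, and the mean of both clones against vector was 0.08 with an interval of -0.29 to 0.46. ZFAS1, antisense to ZNFX1 and the host of SNORD12, SNORD12B and SNORD12C, stood at 40.4, 38.9 and 41.3 CPM under the vector, at 36.3, 38.5 and 41.0 CPM in clone A1, and at 37.6, 39.7 and 48.9 CPM in clone A4. Each clone's range crossed the vector range. The mean of both clones against vector was 0.00 on the log2 scale, with an interval of -0.32 to 0.33.

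The other abundant hosts also overlapped between clones and vector. SNHG1, the host of the SNORD22 to SNORD31 cluster, had a mean of 94.9 ± 8.98 CPM under the vector, 95.2 ± 19.7 CPM in clone A1 and 77.4 ± 9.23 CPM in clone A4 (SD, n = 3 per group). SNHG3, which holds SNORA73A and SNORA73B, measured 156 ± 18.7, 141 ± 15.7 and 123 ± 29.8 CPM in the same order (SD, n = 3 per group). SNHG4, beside MATR3, measured 38.3 ± 3.52, 38.8 ± 5.06 and 31.4 ± 4.70 CPM, and SNHG26, the host of SNORD93, measured 39.8 ± 5.46, 37.1 ± 3.28 and 35.9 ± 5.97 CPM (SD, n = 3 per group). Their log2 fold changes for the mean of both clones against vector were -0.15, -0.24, -0.13 and -0.12.

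Among hosts of lower level, SNHG32, SNHG19 and SNHG31 had large fold changes and a wide spread between libraries. SNHG32, the host of SNORD48 and SNORD52, stood at 8.36, 10.2 and 11.1 CPM under the vector, at 2.53, 6.18 and 10.3 CPM in clone A1, and at 7.78, 8.21 and 10.7 CPM in clone A4. Clone A1 replicate A was the lowest of the 9, and the clone A1 log2 fold change was -0.64 with it and -0.26 without it. SNHG19, the host of SNORD60, stood at 2.36, 2.32 and 2.03 CPM under the vector, at 0.669, 2.501 and 3.62 CPM in clone A1, and at 1.76, 2.78 and 5.44 CPM in clone A4. Both clones reached above and below the vector range. Its log2 fold change in clone A4 was 0.57, and 0.00 without clone A4 replicate C. SNHG31, which holds 1 H/ACA snoRNA, stood at 2.53, 0.781 and 1.49 CPM under the vector, at 4.29, 3.58 and 1.76 CPM in clone A1, and at 4.45, 0.341 and 3.67 CPM in clone A4. Clone A4 replicate B was the lowest of the 9, and the mean of both clones against vector was 0.91 with an interval of -0.50 to 2.32. That mean was 0.57 without vector replicate B and 1.397 without vector replicate A.

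In clone A4 against clone A1, 0 of the 30 hosts passed by edgeR, with a smallest adjusted p of 0.779, while 0.161% of all genes passed. At an unadjusted p under 0.05, 0 hosts were lower and 0 higher, against 2.82% of all genes lower and 3.81% higher, and DESeq2 also gave 0. DANCR was the 1 host lower without overlap and 0 were higher, where 5.72% of all genes were lower and 7.92% higher. The median log2 fold change was 0.03 over the hosts and 0.04 over all genes tested. The 3 largest values among hosts with an average log2 CPM of at least 1 were 0.55 for SNHG19, 0.52 for SNHG18 and 0.49 for SNHG32. Without clone A1 replicate A the SNHG32 value was 0.12, and without clone A1 replicate C it was 1.03, while SNHG19 gave 0.13 and 1.06 without the same libraries and -0.02 without clone A4 replicate C. For the mean of both clones against vector, 0 hosts passed by edgeR (smallest adjusted p 0.684) and 0.0738% of all genes did. At an unadjusted p under 0.05, 1 host was lower (SNHG29) and 0 higher, against 3.82% of all genes lower and 2.64% higher, and DESeq2 gave 2 at that p, both lower, against 4.06% of all genes lower. No host had its 6 NCBP2 libraries apart from the 3 vector libraries (0 lower and 0 higher), where 2.26% of all genes were lower and 1.47% higher.

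The size of difference that these libraries could leave unseen was read from the intervals. Like the p-values, the intervals rest on the spread between libraries. With 1 clone in each NCBP2 group, they do not cover how further NCBP2 clones would differ. The 95% interval lay within a 2-fold difference in both directions for 20 of the 30 hosts in clone A1 against vector, for 22 in clone A4 against vector and for 22 in the mean of both clones. For that mean it lay within a 1.5-fold difference for 12 hosts, among them GAS5, ZFAS1, SNHG1, DANCR and SNHG16. In the same comparison 10782 of the 21682 genes tested had intervals within 2-fold and 4783 within 1.5-fold.

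**Figure D3:**
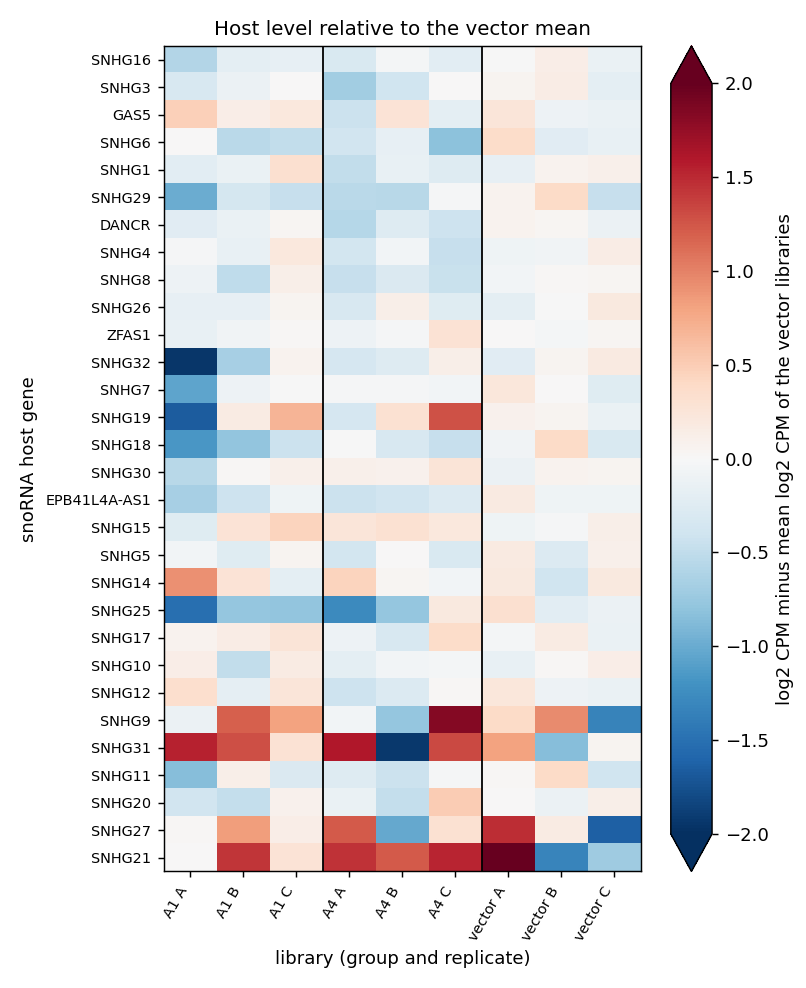
Log2 CPM of each tested host (vertical, by level per kb) in each library (horizontal, replicates A, B and C of each group) minus the mean log2 CPM of the vector libraries. Red is higher and blue lower, with the colour scale ending at 2 in either direction. Clone A1 replicate A is the lowest library for 12 of the 30 hosts, among them SNHG32 and SNHG19.

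Several hosts had their lowest or highest value in the same library. Clone A1 replicate A was the lowest of the 9 libraries for 12 hosts, where it was the lowest for 34.6% of all genes tested. Clone A4 replicate A was the lowest for 7 hosts, where it was the lowest for 6.24% of all genes tested. Vector replicate A was the highest for 8 hosts, where it was the highest for 7.65% of all genes. Without clone A1 replicate A, the median over hosts in clone A1 against vector was -0.05 in place of -0.10, and 0 hosts passed.

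The hosts were also grouped by what they carry and how they start, features that took no part in their choice. The 12 tested members that hold only C/D snoRNAs, or these and RNAs whose names give no class, had a median log2 fold change of -0.15 for the mean of both clones, and 8 of the 12 were negative. The 12 that hold H/ACA snoRNAs in the same sense had a median of -0.16, and 8 of the 12 were negative. The 3 tested hosts of Cajal body RNAs (SNHG10, SNHG20 and SNHG21) had a median of -0.07. The 13 members with a tract within 5 bases of the RefSeq start had a median of -0.16. The 13 tested members without one had -0.11, and 9 were negative in each of these groups. Over all genes tested in the same comparison the median was 0.004, and 49.5% were negative. These differences were not tested.

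Among the counted gene identifiers, 145 small nucleolar and Cajal body RNA genes lie inside 31 of the members by GENCODE 44, 84 of them in SNHG14. None of these identifiers was found inside GAS5, which does not show that GAS5 hosts no snoRNA. Only 32 of the 145 had any count on their strand and 14 could be tested. Of these 14, 0 passed in any comparison and 0 had an unadjusted p under 0.05 by edgeR. Outside SNHG14, 13 of 14 snoRNAs that lie in introns alone had counts, while 5 of the 47 that touch an annotated host exon did. Among those 5, SNORA26 and SNORA13 lie 100% in host exon by GENCODE 44, yet had 2829 and 834 counts. Reads that fit both genes would be left out there, and the annotation used for counting is not given. What the counts of these 2 snoRNAs hold was not tested. Reads of a mature snoRNA and of the unspliced host cannot be told apart in these counts. For 5 of the snoRNAs set beside their hosts below, the sequence is printed from GENCODE 44 transcripts (GRCh38), 5′ to 3′. Capitals mark the ACA of H/ACA snoRNAs and the C box (TGATGA) and D box (CTGA) of C/D snoRNAs.
SNORA73B in SNHG3, chr1:28508559-28508762, plus strand: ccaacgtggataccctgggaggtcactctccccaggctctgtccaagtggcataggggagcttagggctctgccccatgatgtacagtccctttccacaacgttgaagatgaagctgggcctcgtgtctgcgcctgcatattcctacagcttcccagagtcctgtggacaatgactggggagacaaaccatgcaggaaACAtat
SNORA26 in DANCR, chr4:52713249-52713370, plus strand: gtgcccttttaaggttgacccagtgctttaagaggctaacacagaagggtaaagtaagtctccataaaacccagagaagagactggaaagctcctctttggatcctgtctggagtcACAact
SNORD12C in ZFAS1, chr20:49278940-49279028, plus strand: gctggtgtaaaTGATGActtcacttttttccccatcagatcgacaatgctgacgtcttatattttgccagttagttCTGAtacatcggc
SNORA13 in EPB41L4A-AS1, chr5:112161485-112161617, plus strand: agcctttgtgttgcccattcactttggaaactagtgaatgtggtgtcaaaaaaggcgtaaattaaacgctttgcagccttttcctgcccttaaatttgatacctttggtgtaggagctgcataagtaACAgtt
SNORD123 in SNHG18, chr5:9548836-9548905, plus strand: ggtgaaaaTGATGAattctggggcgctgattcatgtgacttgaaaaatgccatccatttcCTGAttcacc
SNORA73B belongs to the U17 family, which acts in ribosomal RNA processing.

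SNORA73B was the most abundant snoRNA inside a host, at 155, 227 and 119 CPM under the vector, 137, 152 and 118 CPM in clone A1, and 74.5, 158 and 212 CPM in clone A4. The groups overlapped, and the log2 fold change for the mean of both clones was -0.23 (95% interval -0.84 to 0.37) beside -0.24 for SNHG3. SNORA26 measured 9.14 ± 3.33 CPM under the vector, 7.90 ± 3.32 CPM in clone A1 and 5.60 ± 2.57 CPM in clone A4 (SD, n = 3 per group). In clone A4 against vector its log2 fold change was -0.71 beside -0.41 for DANCR, with an interval of -1.60 to 0.18. SNORD12C measured 6.09 ± 1.60, 7.99 ± 1.77 and 5.04 ± 2.20 CPM in the same order (SD, n = 3 per group), with 0.06 for the mean of both clones beside 0.00 for ZFAS1. SNORA13 gave 0.30 beside -0.37 for EPB41L4A-AS1, and SNORD123 gave -0.15 beside -0.54 for SNHG18, with intervals of -0.88 to 1.47 and -1.32 to 1.02 for the snoRNAs. The half-width of the snoRNA intervals exceeded that of their hosts in each of these 5 pairs. The other snoRNAs with at least 10 counts in every library each had the opposite sign to their host, and their intervals included 0. SNORD93 gave 0.37 beside -0.12 for SNHG26 in the mean of both clones. Within SNHG4 (-0.13), SNORA74A gave 0.10 and SNORA74D 0.31. SNORD104 gave 0.42 beside -0.79 for SNHG25, and SNORD99 0.54 beside -0.04 for SNHG12. SNORA71B gave -0.06 beside 0.08 for SNHG17.

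**Figure D4:**
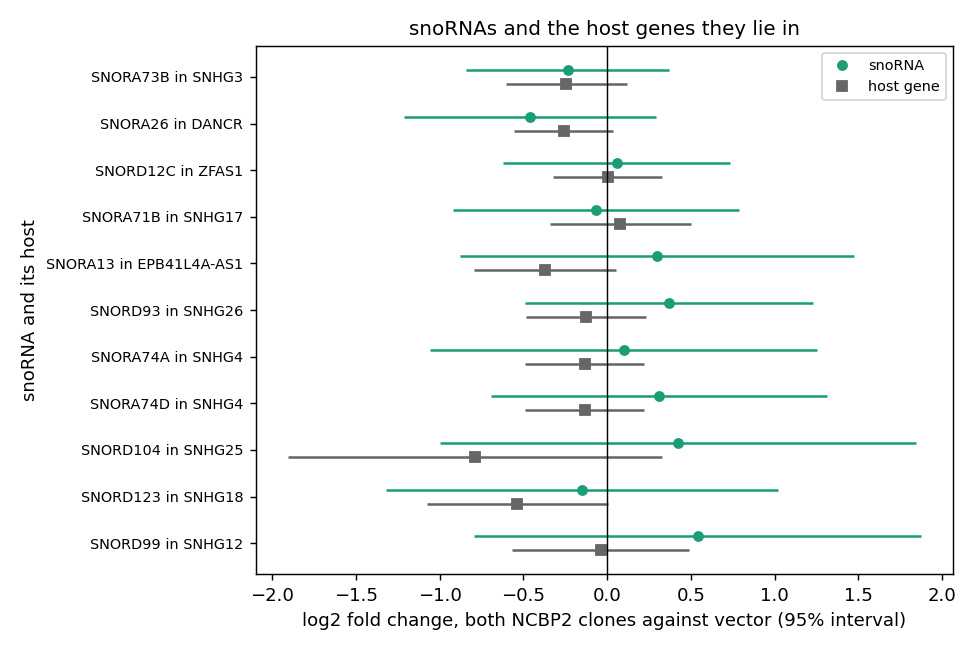
Log2 fold change for the mean of both NCBP2 clones against empty vector, with 95% intervals from edgeR, for the 11 snoRNAs with at least 10 counts in every library (green circles) and for the host each lies in (grey squares), the most abundant snoRNA at the top. All 11 snoRNA intervals include 0.

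The decay and snoRNA pathways around the hosts were described from 4 lists. Of 23 NMD factors, which recognise and degrade RNAs with premature stops, 0 passed in any comparison by edgeR. At an unadjusted p under 0.05 in the mean of both clones, 0 were lower and 0 higher, and the median log2 fold change was 0.00. In clone A4 against clone A1, 3 were lower at that p (SMG1, GSPT1 and MAGOHB) and 0 higher. There 2.82% of all genes were lower and 3.81% higher. Clone A1 against vector gave 0 lower and 1 higher (SMG1), against 4.27% of all genes lower and 3.24% higher. Clone A4 against vector gave 0 lower and 0 higher, against 2.75% and 2.5% of all genes. In the mean of both clones the largest values were -0.38 for SMG5 and 0.27 for UPF3B. SMG5 recruits the decay enzymes and UPF3B links NMD to exon junctions. Of 27 mRNAs known as NMD substrates, 0 passed, with a median of -0.09 in the mean of both clones. Counts per gene do not tell isoforms apart, so a change in 1 isoform of such an mRNA could go unseen. At an unadjusted p under 0.05 in that mean, 6 of the 27 were lower (ASNS, TRIB3, SESN2, DDIT3, ATF4 and CDKN1A) and 0 higher. There 3.82% of all genes tested were lower and 2.64% higher.

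Those 6 mRNAs are also known outside NMD, as ATF4 and its amino acid stress targets ASNS, TRIB3, SESN2 and DDIT3, and the cell cycle inhibitor CDKN1A. ASNS, asparagine synthetase, measured 9.26 ± 4.13 CPM under the vector, 5.29 ± 0.869 CPM in clone A1 and 4.05 ± 0.786 CPM in clone A4 (SD, n = 3 per group), with a log2 fold change of -0.999 (SE 0.304, adjusted edgeR p 0.429). SESN2 gave -0.73 with an adjusted edgeR p of 0.585. TRIB3, given here after its values were seen, gave -0.71 (SE 0.212, adjusted edgeR p 0.396). It measured 13.4 ± 2.38 CPM under the vector, 9.73 ± 0.545 CPM in clone A1 and 6.89 ± 1.44 CPM in clone A4 (SD, n = 3 per group). Of the 6, only TRIB3 had every NCBP2 library under every vector library, where 2.26% of all genes were lower without overlap. The median over the 30 snoRNA hosts in the same comparison was -0.13. What underlies the lower values of the 6 mRNAs was not tested.

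A list of 43 other snoRNA hosts held protein-coding genes, many for ribosomal proteins and translation factors, and the pseudogene CCT6P1. Of these 43, 0 passed, the median for the mean of both clones was -0.10, and 30 were negative. At an unadjusted p under 0.05 by edgeR, 2 were lower (MYRIP and RPS13) and 1 higher (PTCD3). There 3.82% of all genes were lower and 2.64% higher. MYRIP gave -1.57 at a level of at most 1.59 CPM in group mean, and PTCD3, a mitochondrial ribosome protein, gave 0.38. Every NCBP2 library lay under every vector library for MYRIP and above every one for PTCD3, where 2.26% of all genes were lower and 1.47% higher without overlap. Of 18 snoRNP proteins, which bind and assemble snoRNAs, 0 passed and the median was 0.00. At that unadjusted p, 0 were lower and 1 higher (NOP58). NOP58, a core protein of C/D snoRNPs, gave 0.57 (SE 0.200, adjusted edgeR p 0.550), at 73.7 ± 20.1 CPM under the vector, 118 ± 19.96 CPM in clone A1 and 101 ± 15.3 CPM in clone A4 (SD, n = 3 per group). SNU13, which binds the same class, gave -0.29.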

How the data were processed

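Reads were aligned with STAR 2.7.1a to GRCh38, per the submitters' processing notes. The annotation used for counting is not given in the sources used here. The deposited files hold raw counts of reads per gene, not normalized, with column 3 taken as the strand of the gene because it held most of the stranded counts. Column 4, the opposite strand, held 5.51% to 6.42%. The lines that name no gene held 44.5% to 63.6% of the reads and entered neither library sizes nor tests. The labels' molecule field names polyadenylated RNA, while the protocol names ribodepletion. Symbols, coordinates and exon lengths are from GENCODE 44, which matched 60295 of 60609 identifiers, and the members' identifiers had the same version for 9 of 32.

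One edgeR 4.0.16 quasi-likelihood fit (robust, R 4.3.3) over 3 groups used filterByExpr with a minimum count of 10, TMM scaling and Benjamini-Hochberg adjustment over all genes, with adjusted p under 0.05 as the threshold. Standard errors come from the fitted log2 fold change and its F statistic, and the script was tested on simulated data. CPM uses TMM-scaled library sizes, and log2 CPM a prior count of 2. No pair of libraries agreed within sampling noise (lowest chi-square per degree of freedom within a group 26.9). Alternatives were DESeq2 1.42.0, voom with library weights (limma 3.58.1), other scalings, no filter and counts without regard to strand. A replicate block, fewer groups in the fit and each library left out were also used. Counts summed per clone, with each clone as 1 unit, were a further alternative for the mean of both clones.

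The text names the 4 genes given by symbol, the 10 hosts highest per kb, hosts with an unadjusted p under 0.05, the 3 largest fold changes per comparison at an average log2 CPM of at least 1, and the 2 largest per list. The members, lists and tests were chosen with earlier results of these data known. Some genes stand on more than 1 list, such as SMG5 and UPF3B on both NMD lists and NOP56 on the host and snoRNP lists.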

Additional observations from a re-analysis of the deposited data

How the results depend on the processing

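No host gene passed the threshold in any of the 17 alternatives of each single-clone comparison or the 18 of the mean of both clones, with smallest adjusted p of 0.107 (clone A1 and vector), 0.101 (clone A4 and vector), 0.202 (between the clones) and 0.0694 (the mean). With voom and library weights, 3, 7, 4 and 6 of the 30 hosts had an unadjusted p under 0.05 in that order, all lower, where 7.74%, 6.65%, 5.23% and 8.46% of all genes tested were lower at that p. The NMD substrate list gained 1 call in clone A4 against vector with DESeq2 and 1 with voom, both TRIB3, and 2 calls in the mean of both clones with voom (ASNS and TRIB3). Without the filter on low counts, 1 NMD factor (MAGOHB) passed in clone A4 against clone A1. SNHG19 in clone A4 against clone A1 reversed from 0.55 to -0.1663 with voom, and leaving out single libraries gave -0.0245 (without clone A4 replicate C) to 1.0597. The median over hosts in clone A4 against clone A1 changed sign in 5 of 17 alternatives (-0.08 to 0.06), and no other median over hosts changed sign. With the replicate block, 0 hosts passed in each comparison. At an unadjusted p under 0.05 the block gave 3, 2, 0 and 2 hosts in the order above, all of them lower. Of all genes tested, 5.32%, 3.09%, 3.68% and 4.34% were lower at that p. The letters were not taken as pairs, since the labels do not say that they mark a shared culture day. Deviations of same-letter libraries correlated between -0.10 and 0.18, with 6 of 9 pairs over 0.1. Those of different-letter libraries correlated between -0.27 and 0.22, so shared letters were not excluded. The cause of these shifts was not tested. Intervals wider than 2-fold in either direction, for 10 or fewer hosts per comparison, and the few snoRNA counts limit what could be detected.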
